A study of Mus musculus with 6 samples.

Results

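Caveolae are small flask-shaped pits of the plasma membrane, and the genes of their coat were examined in cultured mouse muscle satellite cells (MuSCs), the stem cells of skeletal muscle. The genes were chosen by symbol, as members of the coat and neck of the caveola, with no measured value in the rule: the caveolins *Cav1*, *Cav2* and *Cav3*, the cavins *Cavin1* to *Cavin4*, and the neck and membrane-shaping genes *Ehd2*, *Pacsin2* and *Pacsin3*. All 10 were present in the count table of 20654 genes, and 8 of the 10 passed the filter on low counts. *Cav3* and *Ehd2* did not pass it and were kept in the fit regardless, as was *Piezo1*.

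RNA was sequenced from MuSCs on day 3 of culture, in 3 control libraries and 3 *Piezo1* cKO libraries, all on a C57BL/6 background. The *Piezo1* cKO mice were *Piezo1*flox/flox; *Pax7*CreERT2/+, so that Cre was made from the *Pax7* locus in MuSCs and tamoxifen induced the deletion of the gene for PIEZO1, an ion channel opened by membrane tension. The controls are labelled wild type, while the study names the group set against *Piezo1* cKO in the sequencing as *Pax7*CreERT2/+, that is, with the Cre allele. MuSCs were sorted from uninjured forelimb muscle as VCAM1+, CD31-, CD45- and Sca1- cells and grown on Matrigel in growth medium with serum, chicken embryo extract and basic fibroblast growth factor, and 4-OH TMX was added to both groups. The age and sex of these mice and the number of mice behind each library are not given in the sources used here, so that p-values measure the spread between these libraries only.

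Caveolins insert into the inner face of the membrane and assemble with cholesterol, and cavins are cytosolic proteins that coat the resulting pit. Caveolae flatten when the membrane is stretched, which makes them a reserve of membrane in mechanically loaded cells. Most cells build them from CAV1, CAV2 and cavin-1, whereas differentiated muscle uses CAV3 and cavin-4 at the sarcolemma and in the forming T-tubules. Loss of CAV3 or of cavin-1 causes muscle disease in humans and mice.

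The sequences before the transcription starts of the muscle pair and of *Cav1* are shown because the muscle pair is turned on during myogenesis, a process in which MyoD and myogenin bind E-boxes. Each holds the 250 bases before the start given by RefSeq, on GRCm38.p6, read 5′ to 3′ on the strand of the gene, with matches to the E-box CANNTG in capitals. All 3 genes lie on the plus strand, and the regions are chr4:48663264-48663513 for *Cavin4*, chr6:112459255-112459504 for *Cav3* and chr6:17306085-17306334 for the first start of *Cav1*.
Cavin4: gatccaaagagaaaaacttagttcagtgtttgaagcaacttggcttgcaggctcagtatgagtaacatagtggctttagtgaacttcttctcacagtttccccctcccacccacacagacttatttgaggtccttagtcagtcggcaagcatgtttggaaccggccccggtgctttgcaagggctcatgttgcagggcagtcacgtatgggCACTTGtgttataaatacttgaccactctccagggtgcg
Cav3: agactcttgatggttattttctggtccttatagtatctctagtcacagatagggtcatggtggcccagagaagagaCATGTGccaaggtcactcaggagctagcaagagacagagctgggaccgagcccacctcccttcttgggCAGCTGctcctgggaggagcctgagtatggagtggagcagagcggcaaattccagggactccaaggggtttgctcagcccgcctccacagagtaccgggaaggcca
Cav1: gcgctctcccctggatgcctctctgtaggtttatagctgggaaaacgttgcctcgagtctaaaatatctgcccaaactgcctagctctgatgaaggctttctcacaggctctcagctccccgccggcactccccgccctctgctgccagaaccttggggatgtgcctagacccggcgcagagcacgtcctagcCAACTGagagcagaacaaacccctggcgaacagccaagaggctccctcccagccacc
*Cavin4* had 1 E-box, CACTTG, whose first base lay 39 bases before the start. *Cav3* had 2, CATGTG at 174 bases and CAGCTG at 106 bases before the start, and *Cav1* had 1, CAACTG, at 57 bases. Among the other caveola genes, CAGCTG was also found before starts of *Ehd2*, *Pacsin2* and *Pacsin3*. Other E-boxes lay before *Cav2* and the second start of *Cav1*, and none lay before *Cavin1* or *Cavin2*. An E-box on either strand was present in 66.2% of 32851 mouse promoters of this length, and its CAGCTG form in 13.0%. None of the 3 regions matched the MEF2 or CArG consensus, which were found in 2.92% and 1.47% of promoters, or the TEAD motif CATTCC on either strand, found in 12.6%. Such a match describes the sequence only.

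*Piezo1*, the targeted gene, lies on chromosome 8 of GRCm38 from 122481698 to 122551329. It had 11, 5 and 6 counts in control libraries 1 to 3 and 7, 12 and 9 counts in *Piezo1* cKO libraries 1 to 3. The libraries labelled *Piezo1* cKO thus did not hold fewer *Piezo1* counts (log2 fold change 0.42, standard error 0.46, adjusted p = 0.792 in edgeR), and the direction given for each difference below depends on those labels being right. The study also assayed *Piezo1* by RT-qPCR in control and *Piezo1* cKO MuSCs, with a panel beside its sequencing results, and those data were not analysed here. The paper reports calcium influx on a PIEZO1 agonist in MuSCs of control but not of *Piezo1* cKO mice, by imaging, not in these libraries. From this, citing RT-qPCR panels as well, the paper concludes that the deletion was effective in such cells. Directions that the paper states for the sequencing are given in the next paragraph. Transcripts with and without the deleted part cannot be told apart in gene-level counts, and *Ctu2* overlaps exons of *Piezo1* on the other strand.

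A count stands for 1 cDNA molecule, since random tags (UMIs) marked each molecule before PCR. The libraries held between 726378 and 931168 counts, and levels are given as CPM, counts scaled to a common library size, after TMM normalisation, a scaling that adjusts for the composition of each library. Of 8554 genes tested, 67 had an adjusted p under 0.05 in edgeR (0.783%), 40 of them higher (0.468%) and 27 lower (0.316%) in *Piezo1* cKO. With scaling by total counts, which moved the median of all genes to 0.078, the split was 48 higher and 18 lower, and among the 27 genes called by DESeq2 it was 12 higher and 15 lower. In its plot of this comparison the paper marks 15 genes as up-regulated and 12 as down-regulated. Its enrichment analysis names muscle differentiation as up-regulated in *Piezo1* cKO. Why the split in that plot is the reverse of the DESeq2 split here was not tested. The number called by edgeR fell to 6 without *Piezo1* cKO 2 and to 29 without *Piezo1* cKO 3, and was 105, 127 and 178 without control 1, control 3 and *Piezo1* cKO 1. Control 2 and *Piezo1* cKO 2 stood apart from the others in muscle differentiation genes, as described further below. Fold changes of *Cavin4* and *Cav3* are given with and without them. For the lists of partner and differentiation genes below, edgeR calls that were lost without them are named.

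None of the 10 caveola genes passed the threshold in edgeR, against a background of 0.783%. At an unadjusted p under 0.05, 3 passed, *Cavin1*, *Cavin4* and *Cav3*, all with higher estimates, against 11.9% of all genes (6.14% of all genes higher and 5.78% lower). Of these, *Cav3* was below the filter and its estimate rested on *Piezo1* cKO 2. DESeq2 called 1, *Cavin4*, against 0.674% of the 4007 genes for which it gave an adjusted p. It gave none for *Cav3*, *Cavin3*, *Ehd2* and *Pacsin3*, which it could therefore not call. *Cavin1*, *Cavin4* and *Pacsin3* were higher in every *Piezo1* cKO library than in every control library, as were 8.19% of all genes, and no caveola gene was lower in every one, as were 8.31%. The median log2 fold change of the 10 genes was 0.14, beside 0.002 over all genes tested. Of the 10 estimates 8 were above 0 with TMM, as were 50.2% of all genes, and the sign of *Cavin2* changed with scaling by total counts and that of *Cavin3* with cyclic loess.

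**Figure D1:**
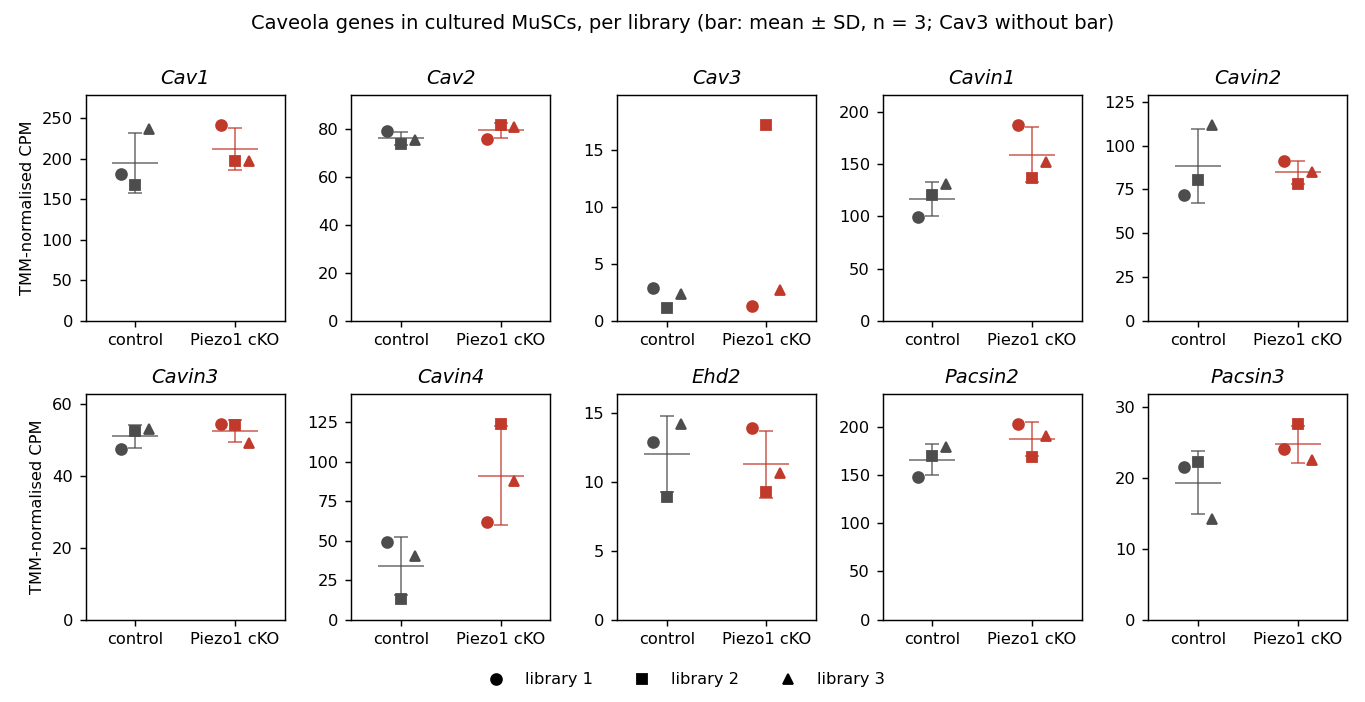
TMM-normalised CPM (y axes from 0, with a scale of its own for each gene) of the 10 caveola genes in the 3 control (grey) and 3 *Piezo1* cKO (red) libraries, with the library number given by the symbol and the mean and SD by the bars (none for *Cav3*, which was at 1 or 2 counts in 5 libraries). *Cavin4* ran from 13.4 to 48.9 CPM in control and from 62.1 to 124 CPM in *Piezo1* cKO, whereas most other genes overlapped between the groups.

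*Cavin4*, the muscle-specific cavin, which is found at the sarcolemma and T-tubules and recruits ERK signalling in heart muscle, lies on chromosome 4 from 48663514 to 48673502. Its level was 48.9, 13.4 and 40.1 CPM in control 1 to 3 and 62.1, 124 and 87.5 CPM in *Piezo1* cKO 1 to 3, from 34, 12, 34, 49, 94 and 66 counts. Control 2 was the lowest library and *Piezo1* cKO 2 the highest, and the groups did not overlap. The means were 34.1 ± 18.5 CPM in control and 91.2 ± 31.2 CPM in *Piezo1* cKO (SD, n = 3 each), a ratio of 2.67. The log2 fold change was 1.45 (unadjusted 95% interval from 0.44 to 2.47, standard error 0.43), and the adjusted p was 0.240 with edgeR but 0.0204 with DESeq2. In these bulk libraries, fewer cells of a type and less RNA per cell cannot be told apart.
The robust fit of edgeR allowed *Cavin4* 3.21 prior degrees of freedom, the weight given to the spread shared by all genes, where the maximum was 83.1, and without the robust option, an alternative added after the data were seen, its adjusted p was 0.00399. Without *Piezo1* cKO 2 the log2 fold change was 1.16 (adjusted p = 0.425, edgeR), without control 2 it was 1.05 (adjusted p = 0.0013, edgeR), without *Piezo1* cKO 1 it was 1.67 (adjusted p = 2.01e-05, edgeR), and without control 2 and *Piezo1* cKO 2 together, which was likewise added, it was 0.75 (adjusted p = 0.232, edgeR). *Cavin4* was also not called without control 1, control 3 or *Piezo1* cKO 3 (adjusted p = 0.126, 0.296 and 0.473, edgeR). With a block for the replicate number its adjusted p was 0.495 in edgeR.

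*Cav3*, the muscle caveolin, lies on chromosome 6 from 112459505 to 112472872. Control libraries 1 to 3 held 2, 1 and 2 counts and *Piezo1* cKO libraries 1 to 3 held 1, 13 and 2, so that 5 of 6 libraries were under a floor of 3 counts, which corresponds to between 3.35 and 4.31 TMM-normalised CPM. *Piezo1* cKO 2 alone held 13 of the 16 *Piezo1* cKO counts. The pooled counts of 16 and 5 gave a rate ratio of 3.39 (exact Poisson 95% interval from 1.19 to 11.8, for counting error alone). Without *Piezo1* cKO 2 the ratio was 0.948 (from 0.147 to 4.87), and in the fit of all 6 libraries the adjusted p was 0.404 in edgeR. At this depth, no difference in *Cav3* was detectable outside that library.

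*Cav1*, the principal caveolin of most non-muscle cells, had 181, 167 and 237 CPM in control and 242, 197 and 197 CPM in *Piezo1* cKO. The groups overlapped, with control 3 and *Piezo1* cKO 1 at nearly the same high level. The log2 fold change was 0.12 (unadjusted 95% interval from -0.17 to 0.41, adjusted p = 0.822, edgeR), and with 1 library left out it lay between 0.01 and 0.29, the latter without control 3.
*Cav2*, which joins CAV1 in mixed oligomers, is its neighbour on chromosome 6, ending at 17289115, 17219 bases before *Cav1* begins at 17306335. Its level was 79.1, 73.6 and 75.6 CPM in control and 76.0, 81.9 and 80.8 CPM in *Piezo1* cKO, a difference about as large as the SD within the groups. The log2 fold change was 0.07 (unadjusted 95% interval from -0.30 to 0.43, adjusted p = 0.932, edgeR).

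*Cavin1* on chromosome 11, from 100956733 to 100970887, encodes the cavin without which caveolae do not form in muscle or other tissues. Its level was 99.2, 120 and 131 CPM in control and 188, 137 and 152 CPM in *Piezo1* cKO. Every *Piezo1* cKO library lay above every control library, although *Piezo1* cKO 2 exceeded control 3 only narrowly. The means were 117 ± 16.2 and 159 ± 25.8 CPM (SD, n = 3 each). On the log2 scale the difference was 0.44 (unadjusted 95% interval from 0.13 to 0.75, standard error 0.16), which missed the threshold in edgeR (adjusted p = 0.185) and in DESeq2 (adjusted p = 0.546). With any 1 library left out, its log2 fold change lay between 0.30 and 0.53 and it was not called in edgeR. In contrast to *Cavin4*, *Cavin1* was highest in *Piezo1* cKO 1 and lowest of its group in *Piezo1* cKO 2.
*Cavin2*, a phosphatidylserine-binding cavin that helps to curve the membrane, had 71.9, 80.3 and 112 CPM in control and 91.3, 77.9 and 84.8 CPM in *Piezo1* cKO. All 3 *Piezo1* cKO libraries lay within the control range (log2 fold change -0.07, unadjusted 95% interval from -0.43 to 0.30, adjusted p = 0.935, edgeR).
*Cavin3*, a cavin that binds CAV1 and has been linked to growth control, had 47.4, 52.4 and 53.1 CPM in control and 54.5, 54.1 and 49.0 CPM in *Piezo1* cKO. These levels overlapped as well (log2 fold change 0.04, unadjusted 95% interval from -0.40 to 0.48, adjusted p = 0.966, edgeR).

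The neck of the caveola is held by EHD2, an ATPase that keeps the pit at the membrane, and shaped by the F-BAR proteins PACSIN2 and PACSIN3, the latter being the muscle-enriched form. *Pacsin2* had 148, 170 and 179 CPM in control and 203, 168 and 190 CPM in *Piezo1* cKO, with overlap between the groups (log2 fold change 0.17, unadjusted 95% interval from -0.12 to 0.46, adjusted p = 0.703, edgeR). *Pacsin3* had 21.6, 22.3 and 14.2 CPM in control and 24.1, 27.7 and 22.5 CPM in *Piezo1* cKO. The groups did not overlap, but the highest control library and the lowest *Piezo1* cKO library, at 22.3 and 22.5 CPM, lay less than 1 count apart, and the log2 fold change of 0.36 (unadjusted 95% interval from -0.27 to 0.99) had an adjusted p of 0.709 in edgeR. Counts of *Ehd2* were 9, 8 and 12 in control and 11, 7 and 8 in *Piezo1* cKO, with overlap and a pooled rate ratio of 0.950 (exact Poisson 95% interval from 0.538 to 1.67, adjusted p = 0.967 in edgeR). At these counts a moderate change of *Ehd2* in either direction could not have been detected.

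**Figure D2:**
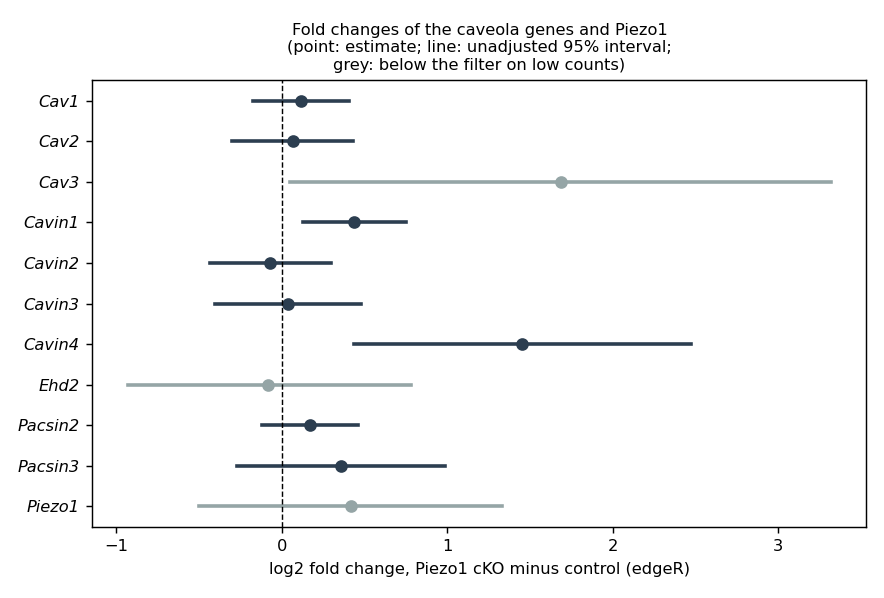
Log2 fold change (x axis, *Piezo1* cKO minus control) of each caveola gene and *Piezo1*, with points for edgeR's estimates and lines for unadjusted 95% intervals; grey marks genes below the filter on low counts. The intervals of *Cav3*, *Cavin1* and *Cavin4* lie above 0, that of *Cav3* resting on *Piezo1* cKO 2, and those of the other genes include 0.

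Divided by the length of the longest coding transcript, mean control levels were 71.0 CPM per kb for *Cav1*, 44.9 for *Pacsin2*, 33.4 for *Cavin1*, 30.7 for *Cavin3*, 28.8 for *Cavin2*, 27.8 for *Cav2*, 16.6 for *Cavin4*, 9.72 for *Pacsin3*, 2.35 for *Ehd2* and 1.83 for *Cav3*. In this order the ranges over libraries overlapped between neighbours from *Cavin1* down to *Cav2*, between *Cavin4* and *Pacsin3*, and between *Ehd2* and *Cav3*, while *Cav1* and *Pacsin2* each stood clear of the next gene. In *Piezo1* cKO, *Cavin4* was at 44.4 CPM per kb, next after *Cavin1*, and its range overlapped those of *Cavin1* (45.5 CPM per kb) and *Cavin3* (31.6 CPM per kb). These overlaps arose on division by length. Before it, *Cavin4* ran from 62.1 to 124 CPM in *Piezo1* cKO, below *Cavin1* (137 to 188 CPM) and above *Cavin3* (49.0 to 54.5 CPM). Because priming at the poly(A) tail and UMIs give about 1 count per molecule whatever its length, division by length may place long transcripts too low.

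Within each library, the share of the muscle member in its family can be read without normalisation. *Cavin4* made up 18.3%, 5.02% and 11.9% of cavin counts in control 1 to 3 and 15.7%, 31.5% and 23.4% in *Piezo1* cKO 1 to 3. These shares overlapped between the groups, since control 1 (exact binomial 95% interval from 13.0% to 24.6%) was above *Piezo1* cKO 1 (from 11.9% to 20.2%), the library in which *Cavin1* was highest. *Cav3* made up 1.09%, 0.461% and 0.749% of caveolin counts in control and 0.397%, 5.80% and 0.943% in *Piezo1* cKO. The interval of *Piezo1* cKO 2 (from 3.13% to 9.72%) overlapped those of control 1 (up to 3.89%) and *Piezo1* cKO 3 (up to 3.37%) only at its lower end. The counts of *Cav1* and *Cav2* therefore made up nearly all caveolin counts in both groups.

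**Figure D3:**
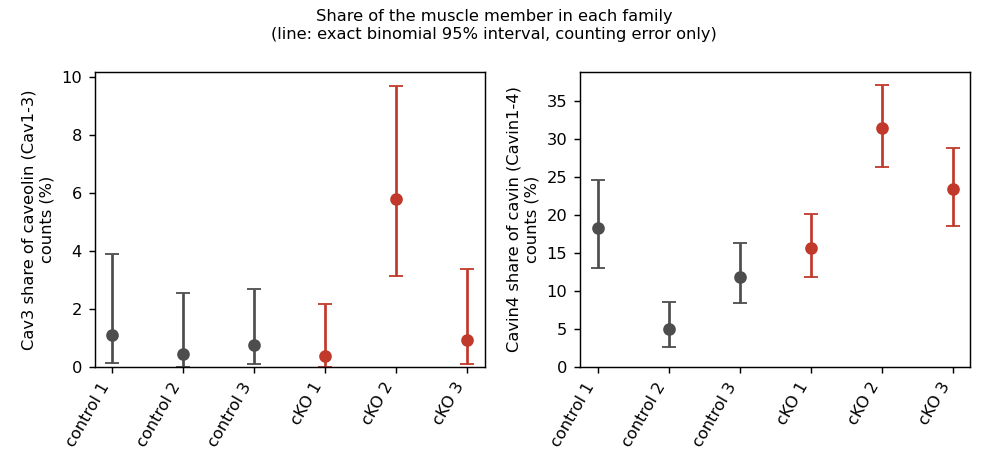
Share (%) of *Cav3* among counts of *Cav1* to *Cav3* (left) and of *Cavin4* among counts of *Cavin1* to *Cavin4* (right) in each library, with lines for exact binomial 95% intervals that cover counting error only. *Cav3* stands out in *Piezo1* cKO 2 at 5.80%, and the *Cavin4* shares of control 1 and *Piezo1* cKO 1 overlap.

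The muscle differentiation list, written for these data with earlier results known, held 27 genes, of which 25 were in the table and 18 were tested. Of these 18, 17 had estimates above 0, 3 were called higher and none lower, beside 0.468% and 0.316% of all genes, and the median log2 fold change was 1.87. The called genes were *Actn3*, an alpha-actinin of fast fibres (1.20, adjusted p = 1.06e-05), *Tnni2*, fast skeletal troponin I (2.16, adjusted p = 0.00466), and *Smyd1*, a methyltransferase of sarcomere assembly (1.77, adjusted p = 0.0435), as log2 fold changes in edgeR. The calls of *Tnni2* and *Smyd1*, but not that of *Actn3*, were lost without *Piezo1* cKO 2 and without control 2 and *Piezo1* cKO 2 together. *Smyd1* was also not called without control 2, without control 3 or without *Piezo1* cKO 3. Nor was it called with total counts, with cyclic loess or with a block for the replicate number. DESeq2 gave *Tnni2* and *Smyd1* no adjusted p. *Acta1*, skeletal actin, did not pass in edgeR (adjusted p = 0.241) but passed in DESeq2 (adjusted p = 0.00485) and in limma-voom (adjusted p = 3.04e-04), and *Myl4*, *Tnnc1* and *Mymk* had log2 fold changes of 1.18, 2.72 and 1.97 that did not pass in edgeR (adjusted p = 0.179, 0.271 and 0.369). With limma-voom, *Tnnc1* and *Mymk* passed (adjusted p = 0.00923 and 0.00283) and *Myl4* did not (adjusted p = 0.329).
Without *Piezo1* cKO 1, and likewise without control 2 and *Piezo1* cKO 2 together, 8 genes of the list were called higher, of 19 and 18 tested, beside 104 of all 8797 and 22 of all 8600 genes tested. The number was 3 of 18 tested without *Piezo1* cKO 2, beside 4 of all 8814 genes tested. With any other single library left out it lay between 2 and 4.
Set against the average over all 6 libraries, the mean log2 CPM of the 18 tested genes was -0.15, -1.54 and -0.53 in control 1 to 3 and 0.25, 1.37 and 0.60 in *Piezo1* cKO 1 to 3. Control 2 was lowest and *Piezo1* cKO 2 highest, and the order of all 6 libraries was the same as that of *Cavin4*. The summed level of the 25 genes was 3500, 2370 and 3040 CPM in control and 3510, 4700 and 3810 CPM in *Piezo1* cKO, of which *Chrna1*, the acetylcholine receptor subunit and the most abundant gene of the list, made up between 1210 and 1910 CPM without being called (adjusted p = 0.678, edgeR). *Myh8* and *Casq2* were at 0 in every control library. In *Piezo1* cKO 1 to 3 they had 1, 1 and 0 counts and 0, 10 and 5 counts. Both were below the filter, and the groups overlapped. *Myog*, the gene for myogenin, named after its values were seen, had 57.5, 3.35 and 53.1 CPM in control and 79.8, 268 and 122 CPM in *Piezo1* cKO, again in the order of *Cavin4*. The part of differentiation in the *Cavin4* and *Cav3* counts was not tested.

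**Figure D4:**
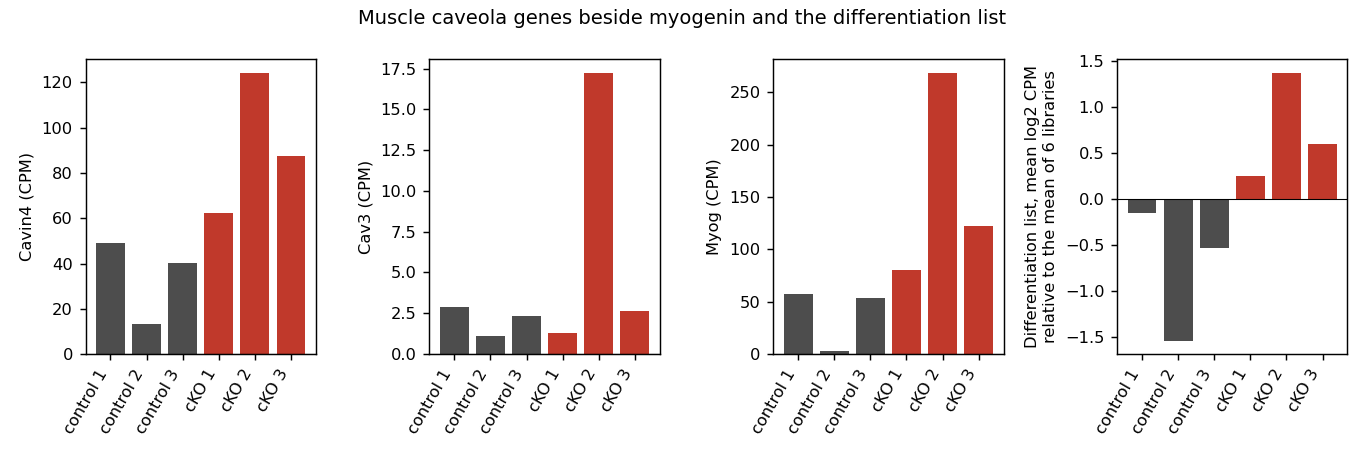
*Cavin4*, *Cav3* and *Myog* (TMM-normalised CPM) and the mean log2 CPM of the 18 tested differentiation genes, set against the average over all 6 libraries, as 1 bar per library, grey for control and red for *Piezo1* cKO. *Cavin4*, *Myog* and the list rank the libraries alike, from control 2 to *Piezo1* cKO 2, whereas *Cav3* is raised in *Piezo1* cKO 2 alone, at 17.2 CPM.

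Across the 6 libraries, the tested genes whose log2 CPM was most like that of *Cavin4* by Pearson's r were *Idh1* (0.997), *Kremen1*, *Spsb2*, *Mfsd11* and *Pgam2* (0.994 each), and 250 tested genes had an r above 0.9. *Pgam2*, the muscle phosphoglycerate mutase, had a log2 fold change of 1.58 and *Idh1*, a cytosolic isocitrate dehydrogenase, one of 0.59, neither of them called (adjusted p = 0.169 and 0.0939, edgeR). For *Cav1* the most similar were *Mrs2* (0.994), *Hk1* (0.993), *Fam189b* (0.978), *Rab14* (0.974) and *Nceh1* (0.970), and for *Cav3*, whose profile is that of 1 library, *Fam76b* (0.990), *Snapc3* (0.984), *Tmem29* (0.971), *Dlg5* (0.964) and *Tmc6* (0.961). Among the caveola genes themselves, *Cavin1* and *Pacsin2* were the most alike (r = 0.95), while *Cavin1* and *Cavin4* had an r of 0.38. With 6 libraries that share a design, such values describe these libraries only.

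Proteins that act with caveolae in many cell types were examined as a list of 22 genes, of which 21 were in the table and 14 tested. None was called in edgeR, beside 0.783% of all genes, or in DESeq2. For *Abl1*, *Abl2*, *Flnc*, *Flot1*, *Flot2*, *Stom*, *Bmpr2* and *Tgfbr1*, DESeq2 gave no adjusted p and so could not call them. In edgeR 2 of the 14 had an unadjusted p under 0.05, a share close to the 11.9% of all genes, and the median log2 fold change was 0.20. *Fyn*, a Src family kinase that phosphorylates caveolin-1, had 48.9, 59.1 and 57.9 CPM in control and 74.8, 110 and 86.1 CPM in *Piezo1* cKO, without overlap (log2 fold change 0.69, standard error 0.19, adjusted p = 0.0643, edgeR). It was the nearest of the 14 to the threshold and passed it with scaling by total counts, with a filter of at least 10 counts in every library and without *Piezo1* cKO 1. *Ehd1*, a relative of EHD2 in endosomal recycling, had a log2 fold change of -0.37 (adjusted p = 0.362, edgeR), and *Dnm2*, a dynamin that cuts vesicles from the membrane, one of 0.25 (adjusted p = 0.582, edgeR). *Flna*, the most abundant gene of the list and a filamin that binds caveolin-1, averaged 551 ± 33.3 CPM in control libraries and 534 ± 70.0 CPM in *Piezo1* cKO libraries (SD, n = 3 each).

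Partners of CAV3 in muscle, in the T-tubule, in membrane repair and at the sarcolemma, made up a list of 22 genes, with 21 in the table and 12 tested. In edgeR 1 gene was called higher and none lower, beside 0.468% and 0.316% of all genes, and the median log2 fold change was 0.13. At an unadjusted p under 0.05 there were 3 higher and 2 lower of the 12, beside 6.14% and 5.78% of all genes. The called gene was *Jph2*, junctophilin-2, which ties the T-tubule to the sarcoplasmic reticulum. It had 38.8, 20.1 and 50.8 CPM in control and 82.4, 77.9 and 55.7 CPM in *Piezo1* cKO, without overlap, and rose (log2 fold change 0.99 with a standard error of 0.24, adjusted p = 0.0239, edgeR). The call was lost without control 2, without *Piezo1* cKO 2, without both, with a block for the replicate number and with cyclic loess, under which *Anxa6* was called instead, and DESeq2 gave *Jph2* no adjusted p. *Anxa6* and *Anxa1*, annexins that gather at membrane lesions, had log2 fold changes of 0.38 and 0.32 (adjusted p = 0.177 and 0.332, edgeR), *Anxa5* and *Anxa2*, named after their values were seen, had -0.29 and -0.19 (adjusted p = 0.379 and 0.656, edgeR), and *Popdc2*, a relative of the CAV3-binding protein POPDC1, had one of -0.91 (adjusted p = 0.336, edgeR). *Bin1*, the membrane-bending protein that starts T-tubules together with CAV3, had 446 ± 50.8 CPM in control and 508 ± 74.8 CPM in *Piezo1* cKO (SD, n = 3 each), and *Dysf*, the repair protein dysferlin, held at most 6 counts per library. Both are named after their values were seen.

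**Figure D5:**
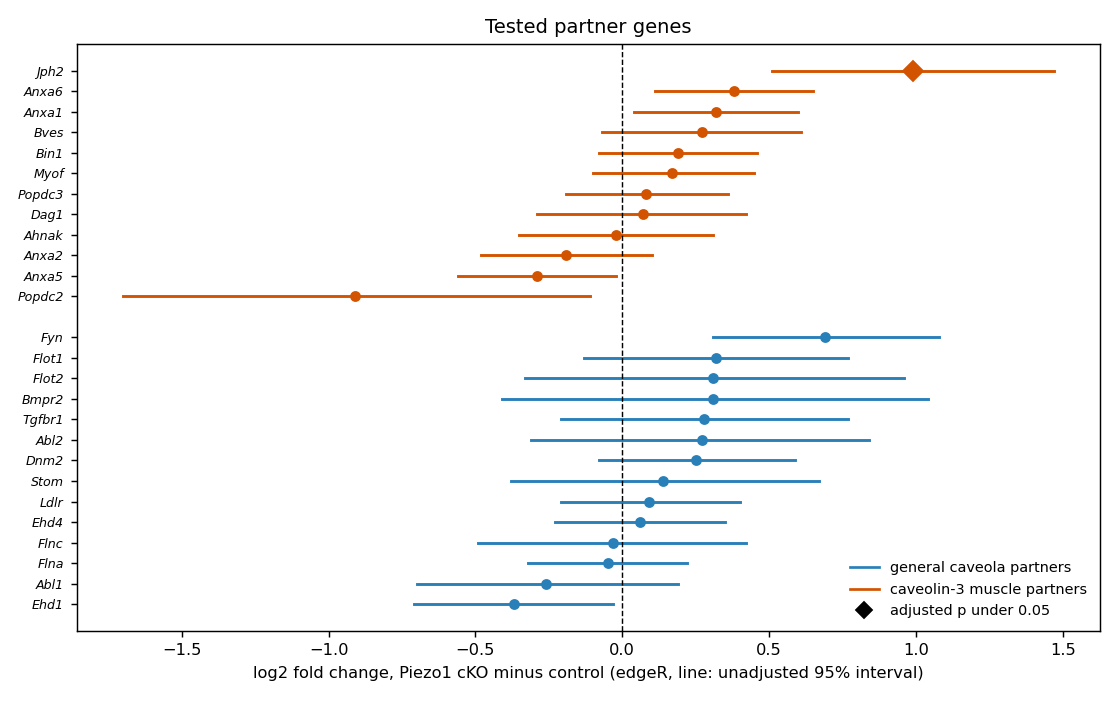
Log2 fold change (x axis, *Piezo1* cKO minus control) of the 14 tested general caveola partners (blue) and the 12 tested CAV3 muscle partners (orange), with lines for unadjusted 95% intervals and a diamond for an adjusted p under 0.05 in edgeR. *Jph2*, at 0.99, carries the only diamond.

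The sorted cells were MuSCs by label. Of the listed MuSC markers, *Calcr* was not in the table. *Chodl* had 0 counts in every control library and 2, 1 and 0 in *Piezo1* cKO 1 to 3, and the other markers had counts in every library. *Myod1*, the most abundant of the 9 listed MuSC markers in the table, was at 1570, 1370 and 1440 CPM in control and 1490, 1090 and 1350 CPM in *Piezo1* cKO. Of the 8 tested, none was called by edgeR or DESeq2, although 3 had an unadjusted p under 0.05 in edgeR, beside 11.9% of all genes, with *Sdc4* (-0.53), *Cdh15* (0.53) and *Vcam1* (-0.45) having the smallest p-values (adjusted p = 0.0624, 0.118 and 0.186 for the log2 fold changes in edgeR). DESeq2 gave *Pax7* and *Myf5* no adjusted p. The summed level of the list was 2920, 2660 and 2820 CPM in control and 2930, 2320 and 2650 CPM in *Piezo1* cKO, and *Pax7* itself, named after its values were seen, was at 14.4, 29.0 and 22.4 CPM in control and 20.3, 6.60 and 15.9 CPM in *Piezo1* cKO.
*Cav1*, *Cav2* and the general cavins are also abundant in endothelial cells, adipocytes, mural cells and fibroblasts. The 7 endothelial markers in the table summed to between 8.27 and 21.2 CPM per library, *Tek* being the most abundant over all libraries together, though not within control, and *Flt1* at 0 in every library. The 3 adipocyte markers summed to at most 7.09 CPM, with *Fabp4* the most abundant and *Adrb3* and *Retn* at 0 in every library. The sort for CD31-, CD45-, Sca1- and VCAM1+ cells would remove endothelial, immune and Sca1+ fibro-adipogenic cells, and the part of any that remained in the *Cav1* counts was not tested.
The 7 mural markers summed to 48.9, 35.7 and 53.1 CPM in control and 62.1, 74.0 and 98.1 CPM in *Piezo1* cKO. Most of this was *Cspg4* (log2 fold change 0.76, adjusted p = 0.144, edgeR), which activated myogenic cells also express. *Rgs5*, a pericyte gene, had 0, 0 and 1 counts in control and 2, 4 and 6 in *Piezo1* cKO, without overlap, *Notch3* averaged 5.68 ± 2.24 CPM in control libraries and 12.7 ± 4.44 CPM in *Piezo1* cKO libraries with overlap (SD, n = 3 each), *Pdgfrb* averaged 6.49 CPM in control and 5.25 CPM in *Piezo1* cKO, and *Myh11*, *Abcc9* and *Lmod1* had 1 count each in all. These 6 were named after their values were seen, and too few counts put them below the filter. The 8 fibroblast markers summed to 405, 383 and 648 CPM in control and 497, 596 and 547 CPM in *Piezo1* cKO. *Gsn* and *Col3a1* had log2 fold changes of 0.17 and 0.41 that did not pass (adjusted p = 0.714 and 0.266, edgeR), *Pi16* was at 0 in every library, and *Dcn*, decorin, was called lower (25.9, 25.7 and 43.7 CPM in control, 10.1, 6.60 and 3.98 CPM in *Piezo1* cKO, log2 fold change -2.17, adjusted p = 3.87e-04, edgeR). Of the markers below the filter, all named after their values were seen, *Ly6a*, the gene for Sca1, had 2, 2 and 3 counts in control and 5, 8 and 9 in *Piezo1* cKO, without overlap, whereas *Pdgfra*, *Col1a1* and *Lum* had 15, 25 and 5 counts in all control libraries and 5, 13 and 2 in all *Piezo1* cKO libraries. The 4 immune markers summed to 33.1, 45.7 and 33.1 CPM in control and 26.6, 30.4 and 27.8 CPM in *Piezo1* cKO. *Cd14*, the most abundant of them, was lower without overlap but not called (log2 fold change -0.28, adjusted p = 0.819, edgeR). The part of these markers in the *Cavin1* difference was not tested.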

How the data were processed

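RNA-seq counts of 3 control and 3 *Piezo1* cKO libraries were used, grouped and numbered by their titles. Per the paper's methods and the labels, the authors reverse transcribed total RNA with barcoded oligo-dT primers carrying UMIs, mapped reads to GRCm38 with STAR 2.7.9a, assigned them to genes with featureCounts 2.0.1 and collapsed them into UMI counts with UMI-tools 1.1.1. The deposited counts were not normalised. Settings for strand and for reads mapping to several places are not given in the sources used here.

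Counts were analysed in R 4.3.3 with edgeR 4.0.16 (TMM, robust quasi-likelihood fit, Benjamini-Hochberg adjustment over all genes tested, called at an adjusted p under 0.05). Genes were kept by edgeR's filter with a minimum count of 10, and 8551 passed. *Cav3*, *Ehd2* and *Piezo1* were added, giving 8554. DESeq2 1.42.0, limma 3.58.1 (voom), other scalings and filters, a block for the replicate number and leaving out libraries were alternatives. Standard errors were calculated back from edgeR's log2 fold changes and F statistics. Intervals of fold changes use them, so they restate the unadjusted test, and are not adjusted. Log2 CPM used a prior count of 2. Exact permutation tests of 3 libraries against 3 cannot give a two-sided p under 0.1, which *Cavin1*, *Cavin4* and *Pacsin3* reached.

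Pairs of libraries within a group had chi-square values per degree of freedom from 1.64 to 2.61, so they differed by more than counting error. Because only counting error is covered, these values cannot show whether libraries shared an RNA sample or a mouse. Positions and lengths came from GENCODE M21 on GRCm38, and promoter sequences from RefSeq on GRCm38.p6, with 9 of the 10 genes matched. The calculations were tested on simulated data.

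The caveola genes and all lists were chosen with earlier results of these data known, and 1 gene of the caveola partner list was left out for a reason unrelated to its values and is not reported here. Genes named were the 10 caveola genes and *Piezo1*, in each list those called by edgeR or DESeq2 and up to 3 more with the smallest edgeR p, the most abundant gene of each marker list, and the 5 genes most like *Cav1*, *Cav3* and *Cavin4*. Genes named for being absent from the table, at 0 counts or without an adjusted p in DESeq2 were picked after their values were seen, and others are marked where named.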

Additional observations from a re-analysis of the deposited data

How the results depend on the processing

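The number of genes called by edgeR was 67, beside 27 with DESeq2, 38 with cyclic loess, 129 with no filter, 123 at an adjusted p under 0.1, and from 6 to 178 with 1 library left out. Of the caveola genes none was called, but 1, *Cavin4*, was with DESeq2, with limma-voom, with no filter and without the robust fit, and 0 to 1 with 1 library left out. Of the caveola partners none was called, but 1, *Fyn*, was with total counts, with at least 10 counts in every library and at an adjusted p under 0.1, and 0 to 1 with 1 library left out. Of the CAV3 muscle partners 1 was called, *Jph2*, beside 2 with total counts (*Jph2* and *Anxa6*), 1 with cyclic loess (*Anxa6* and not *Jph2*), 0 with DESeq2, which gave it no adjusted p, 0 without control 2 and *Piezo1* cKO 2 together, and 0 to 1 with 1 library left out. Of 18 differentiation genes tested 3 were called, beside 12 with limma-voom (72 of all genes), 12 without the robust fit (83 of all genes), 9 of 25 with no filter, 1 of 9 with at least 10 counts in every library (92 of all genes), 8 without control 2 and *Piezo1* cKO 2 together, and 2 to 8 with 1 library left out. The cause of these changes was not tested.

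Log2 fold changes that turned sign were small or rested on few counts. *Cav3* was at -0.39 and *Piezo1* at -0.09 without control 2 and *Piezo1* cKO 2 together, *Cavin2* at 0.01 with total counts, and *Cavin3* at -0.01 with cyclic loess. With 1 library left out, *Cav3* ran from -0.07 to 2.18, *Cavin2* from -0.18 to 0.15, *Cavin3* from 0 to 0.08 and *Ehd2* from -0.26 to 0.07. The filter of at least 10 counts in every library left no value for *Cav3*, *Ehd2* and *Piezo1*. These 3 had too few counts to resolve moderate changes.

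Over all tested genes, libraries with the same replicate number did not deviate together (correlations of -0.144, -0.204 and 0.012). Because counting error is part of these deviations, the values cannot show whether the numbers pair the libraries. A fit with a block for that number called 46 genes, among them 0 of the caveola genes and 0 of the CAV3 muscle partners.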
